A study of Mus musculus with 23 samples.

Results

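Glutamate and GABA receptor subunits are described here in striatum of mice labelled as double knockouts of the Polycomb genes Ezh1 and Ezh2 (dKO) and of WT mice. The members are the probe sets whose single gene symbol begins with Gria, Grik, Grin, Grid, Grm or Gabr, the symbols of the ionotropic and metabotropic glutamate receptors and of the GABA-A receptors. They number 91 of 38143 probe sets with 1 symbol, for 44 of 20750 genes. The name rule also took in Grid2ip, which encodes delphilin, a synaptic scaffold protein that is no subunit. The other 43 genes (90 probe sets) encode subunits, and the GABA-B receptor genes do not match the name. Striatum receives the cortical and thalamic input of the basal ganglia, mainly onto medium spiny neurons, which release GABA.

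The dKO mice carry the genotype label Ezh1; Ezh2 Camk Cre, and the WT mice were littermates of like age and sex, as the design text states. Cre is a recombinase that removes marked DNA, and the labels do not spell out which promoter Camk stands for, in which cells it acts, or which part of either gene was removed. There were 3 dKO and 3 WT arrays at 6 weeks, 3 dKO and 4 WT arrays at 3 months, and 6 dKO and 4 WT arrays at 6 months. Each array is a biological replicate per the design text, and the number of arrays limits the precision. The deposited values are log2 values centred on each probe set's own middle, so only differences among arrays can be read from them, not how strongly a gene was expressed. Whether a subunit is abundant or absent in striatum, and whether the defining markers of the tissue are present, is therefore unknown here.

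Glutamate acts on 3 kinds of ion channel receptor and on receptors coupled to G proteins. AMPA receptors (Gria genes) carry most fast excitatory current, kainate receptors (Grik) modulate it, and NMDA receptors (Grin) open on coincident activity and pass calcium. Metabotropic receptors (Grm) signal through G proteins, and in medium spiny neurons Grm5 couples cortical input to calcium release and plasticity. GABA-A receptors (Gabra, Gabrb, Gabrg, Gabrd and others) are chloride channels of 5 subunits, usually alpha, beta and either gamma or delta. Receptors with a gamma subunit sit mainly at synapses, whereas alpha 4 with delta forms receptors outside synapses that carry tonic inhibition. Ezh1 and Ezh2 are the alternative catalytic subunits of PRC2, the complex that methylates histone H3 at silenced genes.

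Of the GABA-A genes, Gabra2, Gabra4, Gabrb1 and Gabrg1 lie on chromosome 5, and Gabra2 was the sole member gene with calls at 2 ages. The 250 bases before their RefSeq starts (GRCm38.p6) are shown because 3 of these genes had a lower call at 6 months and Gabrg1 had none. Capitals mark CG, the dinucleotide that is dense in CpG islands, where PRC2 is known to bind in mammals.
Gabra2: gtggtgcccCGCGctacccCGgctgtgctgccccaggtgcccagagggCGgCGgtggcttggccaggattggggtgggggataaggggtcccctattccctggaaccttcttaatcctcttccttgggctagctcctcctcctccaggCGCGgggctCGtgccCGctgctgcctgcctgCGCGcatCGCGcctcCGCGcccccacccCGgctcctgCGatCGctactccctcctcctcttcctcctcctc
Gabra4: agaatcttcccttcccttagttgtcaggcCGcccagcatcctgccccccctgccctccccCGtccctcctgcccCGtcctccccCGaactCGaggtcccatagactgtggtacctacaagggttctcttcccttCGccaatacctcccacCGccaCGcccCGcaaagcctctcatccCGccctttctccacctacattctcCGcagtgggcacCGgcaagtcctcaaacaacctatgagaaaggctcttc
Gabrb1: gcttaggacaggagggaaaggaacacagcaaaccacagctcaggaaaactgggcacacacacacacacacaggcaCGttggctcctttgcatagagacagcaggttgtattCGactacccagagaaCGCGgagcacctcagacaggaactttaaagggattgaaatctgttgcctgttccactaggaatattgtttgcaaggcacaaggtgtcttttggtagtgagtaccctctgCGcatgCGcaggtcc
Gabrg1: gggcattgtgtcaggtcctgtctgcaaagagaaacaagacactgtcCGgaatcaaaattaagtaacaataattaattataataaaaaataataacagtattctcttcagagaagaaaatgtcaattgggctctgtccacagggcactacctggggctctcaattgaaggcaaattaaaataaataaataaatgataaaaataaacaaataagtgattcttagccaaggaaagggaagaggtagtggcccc

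The windows are chr5:71095850-71096099 on the minus strand for Gabra2, chr5:71658309-71658558 on the minus strand for Gabra4, chr5:71699682-71699931 on the plus strand for Gabrb1 and chr5:70842618-70842867 on the minus strand for Gabrg1. Gabra2 holds 18 CG in its window, and 21.7% of all 32851 windows of that length hold at least as many. Gabra4 holds 12 (33.5% of windows hold as many), the Gabrb1 window 6 (50.4%) and Gabrg1 1 (92.1%). RefSeq has another Gabrb1 start, on the plus strand after chr5:71657671-71657920, which lies next to the Gabra4 start on the opposite strand, and that window holds 18 CG. The table held a promoter for 29 of the 44 member genes (37 windows). The median was 10 CG in windows of 7 genes with only lower calls at 6 months, 8 in those of 18 genes without a call and 6 over all windows. It was 22.5 in the 2 windows of genes with only higher calls and 14 in the 2 windows of genes called in both directions. TATAAA, read on both strands, was in 1 of the 10 windows of genes with lower calls, in 3 of 23 without a call and in 12.4% of all windows. GGGCGG, read on both strands, was in 4 of the 10, in 12 of the 23 and in 32.7% of all windows, and TGACGTCA, which reads the same on both strands, was in none of the members' windows and in 1.55% of all. A match describes letters only.

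The arrays were checked first against the targeted genes and for signs of tissue and RNA quality. Of the Ezh1 probe sets, that with the largest SD was lower in dKO at every age, with log2 fold changes of -2.05 at 6 weeks and -2.10 at 6 months (limma, adjusted p = 0.0105 and 1.70e-05) and an adjusted p of 0.00312 at 3 months. At 6 weeks it read -0.37, -0.62 and 1.47 in dKO arrays, against 2.28, 2.28 and 2.07 in WT arrays. The array at 1.47 lay below all WT arrays but far above the other dKO arrays. On the other Ezh1 probe sets it read 0.62, 0.89 and 0.13, against lowest WT values of 1.01, 1.62 and 0.89. The highest values of the other dKO arrays were -0.20, -0.44 and -0.33 in the same order. This array thus shows only part of the fall seen in the other dKO arrays of its age. It is named the library labelled dKO replicate 3 throughout. Ezh2, with 1 probe set, had log2 fold changes of -0.40, -0.45 and -0.43 from the youngest age to the oldest and did not pass the test at any of them (adjusted p = 0.601, 0.631 and 0.067). A probe set outside the deleted part would check nothing. Choroid plexus and ependyma markers had a median above 1 in 5 arrays (dKO 1 and WT 1 at 6 weeks, WT 1 at 3 months, dKO 1 and WT 1 at 6 months, in numbers of arrays). The difference between 3′ and 5′ Gapdh probes, a sign of RNA breakdown, spanned -0.03 to 0.06 in dKO arrays and -0.04 to 0.08 in WT arrays at 6 months. At 3 months it spanned -0.008 to 0.146 in dKO and -0.071 to -0.002 in WT. The same difference for actin did not overlap at 3 months, at -0.075 to 0.108 in dKO and -0.188 to -0.077 in WT. The part of RNA quality in the 3-month results was not tested. The tissue is bulk, so fewer cells of a type and less RNA per cell cannot be told apart.

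At 6 months, receptor subunits fell more often than they rose in dKO striatum. Of the 91 probe sets, 18 were lower (19.8%) and 4 higher (4.4%), against 8.07% lower and 7.62% higher of all 38143 probe sets (limma, 1 mean per group, Benjamini-Hochberg adjusted p under 0.05, two-sided). The lower calls included metabotropic (Grm3, Grm5), AMPA (Gria3, Gria4) and GABA-A subunits (Gabra2, Gabra4, Gabrd), with log2 fold changes of -0.29 to -0.78. The higher calls were 1 probe set each of Gabrg3, Gabra5, Gria2 and Grik4, with 0.41 to 0.80. By gene, 16 of the 43 subunit genes had a call: 12 only lower, 2 only higher, and Gria2 and Gabrg3 in both directions on different probe sets. Of all 20750 genes, 4617 had a call, 2323 a lower one and 2362 a higher one. Glutamate receptor subunits had 10 lower and 2 higher of 49 probe sets (20.4% and 4.08%), and GABA receptor subunits 8 and 2 of 41 (19.5% and 4.88%). In either direction 22 members passed, against 15.7% of all probe sets, and 34 had an unadjusted p under 0.05, against 28.4% of all. The median log2 fold change was -0.09 over the members and -0.00 over all probe sets. In 14 probe sets all dKO arrays lay below all WT arrays and in 1 they lay above, against 5.19% and 4.8% of all probe sets. The higher calls rest on few arrays: without 1 array of 6 months there were 2 (WT replicate 1 left out), 0 (WT replicate 3), 1 (WT replicate 4) and 1 (dKO replicate 4), while the lower calls numbered 14 to 21 whichever array was left out.

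**Figure D1:**
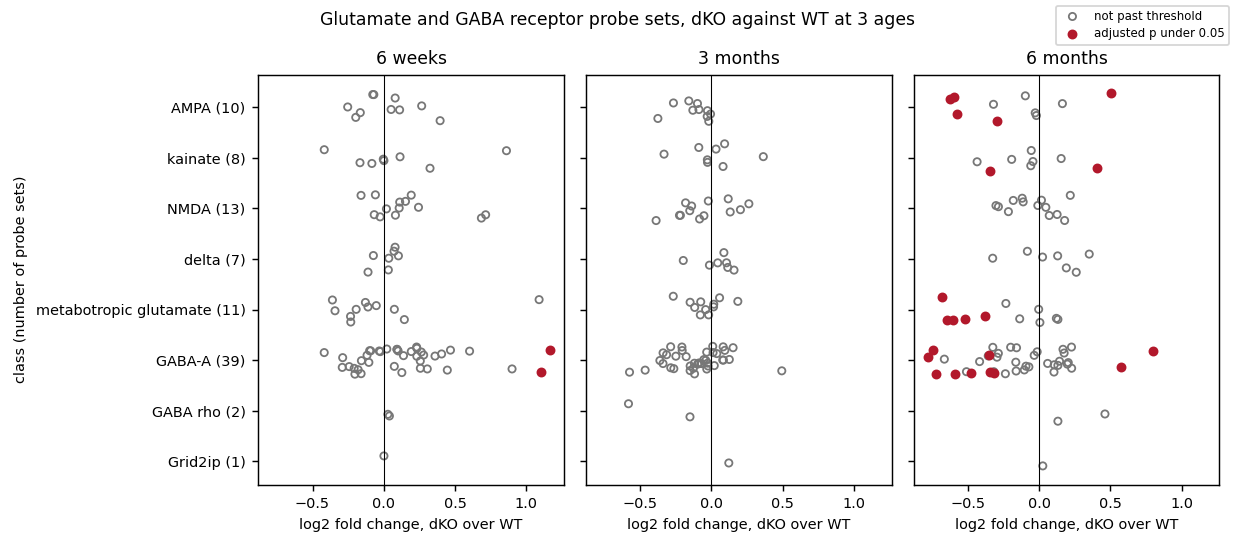
Log2 fold change of dKO over WT (horizontal axis) for each of the 91 probe sets, by receptor class (rows) at the 3 ages (6 weeks, 3 and 6 months); filled points have a limma adjusted p under 0.05. The 2 filled points at 6 weeks are both Gabra2, 3 months has none, and at 6 months 18 filled points lie left of 0 and 4 right of it.

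Metabotropic glutamate receptors had 5 lower calls (45.5%) and no higher one among 11 probe sets of 7 genes at 6 months. Of all probe sets, 8.07% were lower and 7.62% higher. Grm5 belongs to group I, which couples to Gq and phospholipase C, and Grm3 to group II, which couples to Gi. Grm5 (1456119_at) had a lowest value of -0.85, a median of -0.40 and a highest value of -0.19 in dKO arrays, against 0.00, 0.02, 0.22 and 0.26 in WT arrays at 6 months. The groups did not overlap. It fell by 0.61 ± 0.13 (adjusted p = 0.00366, limma), and its other probe set, 1455272_at, fell by 0.38 ± 0.10 (adjusted p = 0.00938), also without overlap. Grm3, with 1 probe set, read -1.13 at its lowest, -0.66 at the median and -0.09 at its highest in dKO arrays, against 0.08, 0.00, -0.05 and 0.13 in WT arrays. The dKO arrays were widely spread: 2 of them, at -0.12 and -0.09, lay just below the WT arrays and the other 4 at -0.60 or lower. Those 2 were dKO replicates 1 and 2, which also stood apart on Gabra4 1429330_at, at -0.20 and 0.01 against -1.50 to -0.89. On Gabrb1 they lay among the other dKO arrays, at -0.33 and -0.43. Why these arrays stood apart was not tested. The log2 fold change of Grm3 was -0.64 ± 0.14 (adjusted p = 0.00396). Grm4, a group III receptor, had -0.23 ± 0.09 and missed the threshold (adjusted p = 0.0895) although its groups did not overlap. Grm2, Grm7 and Grm8 had values between -0.14 and 0.13, none past the threshold.

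AMPA receptor subunits had 4 lower calls and 1 higher among 10 probe sets of 4 genes at 6 months (40% and 10%). Of all probe sets, 8.07% were lower and 7.62% higher. Gria3 fell on both of its probe sets. The values of 1420563_at were -1.11 at the lowest, -0.76 at the median and -0.35 at the highest in dKO arrays, against -0.05, -0.34, -0.25 and -0.01 in WT arrays. No dKO array reached the lowest WT array, though they lay close there, at -0.35 against -0.34. The log2 fold changes of Gria3 were -0.58 ± 0.13 on this probe set and -0.60 ± 0.17 on 1434728_at (adjusted p = 0.00401 and 0.0173, limma). The call on 1434728_at was lost without WT replicate 4 of 6 months (-0.53), and both were lost after quantile normalization (-0.36 and -0.38).

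Gria4 (1435722_at) read -1.20 at the lowest, -0.38 at the median and -0.17 at the highest in dKO arrays at 6 months, against 0.16, 0.15, 0.17 and 0.10 in WT arrays. The WT arrays lay within a narrow band above all dKO arrays, and 1 dKO array lay far below the others. It fell by 0.63 ± 0.14 (adjusted p = 0.00337), while the other 2 Gria4 probe sets had -0.32 ± 0.15 and 0.16 ± 0.17 and did not pass.

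Gria2, the subunit that makes AMPA receptors impermeable to calcium, gave opposite results on its probe sets at 6 months. On 1421970_a_at it fell by 0.29 ± 0.09 (adjusted p = 0.0251), on 1453098_at it rose by 0.50 ± 0.14 (adjusted p = 0.0143), and on 1434146_at it had -0.03 ± 0.10. Without WT replicate 3 of 6 months neither call held (-0.28 and 0.39), and without WT replicate 2 or 4 the lower one did not (-0.28 each). Groups overlapped on all 3 probe sets, and which transcripts each probe set reads is not given in the sources used here. Gria1, the other major AMPA subunit of the forebrain, had -0.02 ± 0.08 and -0.10 ± 0.09 on its 2 probe sets, neither past the threshold.

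Among kainate receptors 1 of 8 probe sets was higher and 1 lower at 6 months (12.5% each), against 7.62% higher and 8.07% lower of all probe sets. Grik4, a high-affinity subunit that forms channels only with Grik1 to Grik3, read -0.19 at the lowest, -0.01 at the median and 0.39 at the highest in dKO arrays, against -0.27, -0.25, -0.39 and -0.51 in WT arrays. All 6 dKO arrays lay above all 4 WT arrays, the sole member probe set of which this held at 6 months. It rose by 0.41 ± 0.12 (adjusted p = 0.0254, limma). The call was lost without WT replicate 3 (0.40) or 4 (0.35) or without dKO replicate 1 (0.34) or 4 (0.37) of 6 months, and with tissue covariates the change was 0.22. Grik2 fell by 0.34 ± 0.11 on 1425790_a_at (adjusted p = 0.0355) with overlapping arrays, and its other probe set had -0.19 ± 0.11. That call was lost without any of 6 single arrays of 6 months (WT replicates 1, 2 and 4, dKO replicates 2, 3 and 5), with changes of -0.36 to -0.27. Grik1, Grik3 and Grik5 had values of -0.44 to 0.15, none past the threshold.

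No NMDA receptor probe set was called at any age among 13 of 7 genes. There limma gave an unadjusted p under 0.05 to 2 of them at 6 weeks, 0 at 3 months and 1 at 6 months. Of all probe sets, 8.66%, 6.48% and 28.4% had such a p at these ages. At 6 months the log2 fold changes ran from -0.30 to 0.22. Grin1, the obligatory subunit, had -0.29 ± 0.15 and -0.22 ± 0.12, Grin2a 0.02 ± 0.20, and the 3 Grin2b probe sets -0.12 to -0.01. Grin2c had the largest change of the class. Its values were -0.62 at the lowest, -0.20 at the median and 0.04 at the highest in dKO arrays, against -0.04, -0.10, 0.19 and 0.16 in WT arrays. The groups overlapped, and -0.30 ± 0.11 missed the threshold (adjusted p = 0.0594). These standard errors leave room for changes as large as some of those called in other classes.

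The 7 delta receptor probe sets held no call either, with -0.33 to 0.35 at 6 months. By limma 3 of the 7 had an unadjusted p under 0.05, against 28.4% of all probe sets. Grid1 had -0.33 ± 0.16 and -0.08 ± 0.16 on its 2 probe sets, neither past the threshold. Grid2ip had 0.03 ± 0.11 at 6 months, with dKO arrays from -0.07 to 0.57 around a median of 0.21 and WT arrays of -0.02, 0.42, 0.40 and 0.00.

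**Figure D2:**
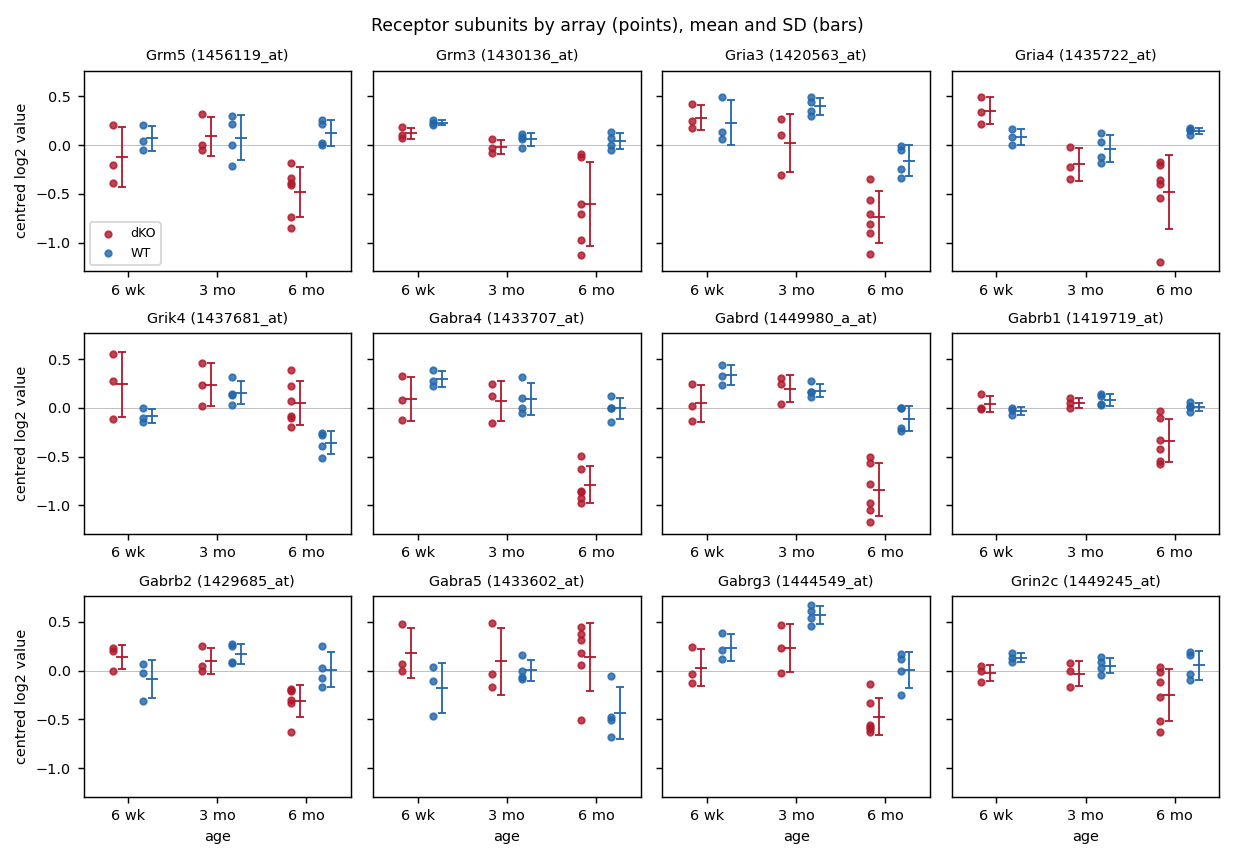
Centred log2 values (vertical axis) of 12 probe sets in every array at the 3 ages (6 weeks, 3 and 6 months), with the mean and SD of each group; dKO stands left of WT. In the panels of Grm5, Grm3, Gria3, Gria4, Gabra4, Gabrd and Gabrb2 all 6 dKO arrays at 6 months lie below the 4 WT arrays, and in that of Grik4 they lie above.

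GABA-A receptor subunits had 8 lower and 2 higher calls among 39 probe sets of 16 genes at 6 months (20.5% and 5.13%). Of all probe sets, 8.07% were lower and 7.62% higher. Gabra4, the alpha subunit that pairs with delta, had the largest fall of any member. Its probe set 1433707_at read -0.97 at the lowest, -0.86 at the median and -0.49 at the highest in dKO arrays, against 0.00, -0.15, 0.00 and 0.12 in WT arrays. The groups stood well apart, with means of -0.79 ± 0.19 in dKO and -0.01 ± 0.11 in WT (SD, n = 6 and 4). The log2 fold change was -0.78 ± 0.11 (adjusted p = 4.09e-05, limma), or 41.9% lower. The other Gabra4 probe set had -0.51 ± 0.22 and did not pass (adjusted p = 0.135).

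Gabrd, the delta subunit, fell beside it. Probe set 1449980_a_at read -1.17 at the lowest, -0.88 at the median and -0.50 at the highest in dKO arrays, against -0.20, -0.24, 0.00 and 0.00 in WT arrays. No arrays overlapped, and the log2 fold change was -0.73 ± 0.11 (adjusted p = 0.000163). The other Gabrd probe set, 1457763_at, had 0.10 ± 0.09 and did not pass (adjusted p = 0.513).

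Gabra2, an alpha subunit of synaptic receptors that is abundant in forebrain, fell at 6 months on 2 of its 5 probe sets. On 1443865_at dKO arrays read -1.06 at the lowest, -0.70 at the median and -0.26 at the highest, against 0.30, -0.09, 0.09 and 0.00 in WT arrays. On 1455444_at they read -0.75, -0.33 and 0.02 in the same order, against 0.17, 0.14, 0.32 and 0.34 in WT arrays. Both probe sets separated the groups, with log2 fold changes of -0.74 ± 0.13 and -0.59 ± 0.14 (adjusted p = 0.00061 and 0.00598). The other 3 probe sets had -0.16 ± 0.10, -0.03 ± 0.24 and -0.01 ± 0.09. Gabrb1, the beta subunit on the same chromosome, fell by 0.35 ± 0.09 (adjusted p = 0.00913), with dKO arrays from -0.58 to -0.04 and WT arrays from -0.04 to 0.06. Gabrg1, the gamma subunit there, had 0.20 ± 0.15 and 0.14 ± 0.18, neither past the threshold. The 10 probe sets on chromosome 5 thus held 4 lower calls and no higher one, and the promoters printed above belong to these genes.

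Among GABA-A genes on other chromosomes, calls went in both directions. Gabra5, an alpha subunit best known from hippocampal receptors outside synapses, rose by 0.57 ± 0.17 (adjusted p = 0.0224, limma). Its dKO arrays ran from -0.51 to 0.44 around a median of 0.25, against -0.69, -0.05, -0.51 and -0.48 in WT arrays, and 1 dKO array lay within the WT range. The call was lost without WT replicate 1, 3 or 4 or dKO replicate 4 of 6 months, with changes of 0.49 to 0.56. Gabrg3 rose by 0.80 ± 0.24 on 1439717_at and fell by 0.48 ± 0.11 on 1444549_at (adjusted p = 0.0292 and 0.00534). On 1439717_at the dKO arrays were uneven, with 3 at 0.66, 1.08 and 1.56 and the others at 0.00, -0.03 and -0.18, and they overlapped the WT arrays at -0.70 to 0.05. This higher call was lost without WT replicate 1, 3 or 4 or dKO replicate 3, 4 or 5 of 6 months, with changes of 0.59 to 0.83.

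The genes on chromosome X (Gabra3, Gabre and Gabrq) had no call among 4 probe sets. Gabrb2, a beta subunit of synaptic receptors, fell on 1 of its 5 probe sets, 1429685_at, by 0.31 ± 0.10 (adjusted p = 0.0343), with dKO arrays from -0.62 to -0.19 just below WT arrays of 0.25, -0.17, -0.08 and 0.02. This call was lost without WT replicate 1 or 4 or dKO replicate 1 or 3 of 6 months, with changes of -0.32 to -0.23. The other Gabrb2 probe sets had -0.36 to -0.16, none past the threshold. The rho subunits Gabrr1 and Gabrr2, best known from retina, had no call. Gabrr2 read -0.17 at the lowest, 0.77 at the median and 1.73 at the highest in dKO arrays, against 0.15, 0.42, 0.23 and 0.50 in WT arrays, which gave 0.46 ± 0.29 (adjusted p = 0.312).

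Agreement between probe sets of a gene was limited. Of the 43 subunit genes, 14 had 1 probe set and 29 several, and 12 of the 29 had a call at 6 months. In 3 of these 12, Gria3 and Grm5 among them, every probe set was called, in the same direction. Calls of the other 9 rest on a part of the gene's probe sets, and without levels it cannot be said which probe sets read the gene well.

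At 6 weeks the picture was different: the 2 calls among the members were both higher, and both were Gabra2. That is 2.2% of the members, against 0.11% higher and 0.0918% lower of all probe sets. No member was lower by limma, and 15 had an unadjusted p under 0.05 in either direction, against 8.66% of all probe sets. In 10 member probe sets all dKO arrays lay above and in 11 below all WT arrays, against 7.43% and 10.1% of all, so the members stood near that background or somewhat above it. On 1443865_at Gabra2 read 0.50, 0.28 and 0.05 in dKO arrays, against -0.93, -0.76 and -0.78 in WT arrays. On 1455444_at it read 0.33, 0.09 and 0.04 in dKO arrays, against -0.86, -1.12 and -1.06 in WT arrays. All dKO arrays lay far above all WT arrays, and the log2 fold changes were 1.10 ± 0.17 and 1.17 ± 0.18 (adjusted p = 0.00392 for both, limma), or 2.15-fold and 2.25-fold.

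On 1455444_at the 3 WT arrays at 6 weeks lay below every other array of the study. On 1443865_at the 6-month dKO arrays reached as low as they did: dKO arrays lay at -0.09 to 0.24 at 3 months and -1.06 to -0.26 at 6 months, and WT arrays at 0.17 to 0.41 and -0.09 to 0.30. Of the other Gabra2 probe sets, 1421738_at read 0.81, 0.69 and 0.60 in dKO arrays against -0.30, -0.06 and -0.24 in WT arrays at 6 weeks, and its 0.90 ± 0.30 missed the threshold (adjusted p = 0.281). Probe set 1449807_x_at had 0.47 ± 0.13 (adjusted p = 0.172), and 1420299_at had -0.02 ± 0.12. Without the library labelled dKO replicate 3 the changes of the called probe sets were 1.22 and 1.23 (adjusted p = 0.0034 and 0.00587). No single left-out array ended either call (highest adjusted p 0.0404 and 0.0459), and without dKO replicate 1 of 6 weeks 4 members were higher and 1 lower. Thalamic and pallidal neuron markers, too, did not overlap between the groups at that age, with array medians of -0.42 to 0.69 in dKO and -0.72 to -0.59 in WT. At the same age cortical markers ran from -0.80 to 1.03 in dKO and -0.74 to 0.06 in WT. The astrocyte gene Gfap rose on 3 probe sets, by 1.20 to 1.38, the sole gene called among 13 astrocyte markers. The 41 probe sets of those markers had a median log2 fold change of 0.04, with 29 positive and 12 negative. The part of the Gfap change in the Gabra2 result was not tested. Because the thalamic medians separated the genotypes at 6 weeks, a fit with them as a covariate cannot decide the part of tissue content. With the thalamic, cortical and choroid plexus medians as covariates, Gabra2 had 0.99 and 1.11, against 1.10 and 1.17 without them. It missed the threshold on the 2 probe sets in that fit (limma, adjusted p = 0.265 and 0.191). Without the arrays high in choroid plexus markers, an alternative added after seeing the data, it had 1.02 on each (adjusted p = 0.0627 and 0.0734), and with only the 6-week arrays in the fit 1443865_at missed as well (adjusted p = 0.0754).

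**Figure D3:**
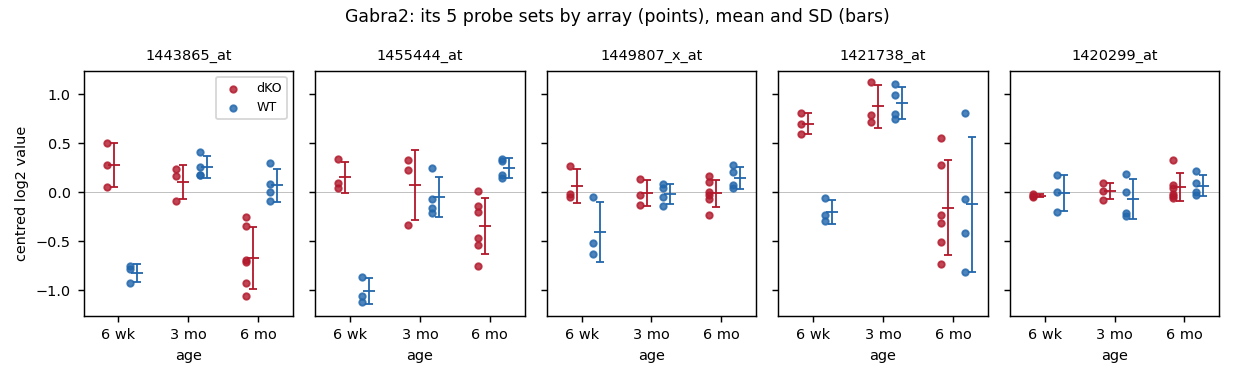
Centred log2 values (vertical axis) of the 5 Gabra2 probe sets in every array at the 3 ages (6 weeks, 3 and 6 months), with the mean and SD of each group; dKO stands left of WT. On 1443865_at and 1455444_at the dKO arrays lie above the WT arrays at 6 weeks, overlap them at 3 months and lie below them at 6 months.

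At 3 months no member passed the test in either direction, against 0.239% higher and 0.0236% lower of all probe sets, and 4 members had an unadjusted p under 0.05 by limma, against 6.48% of all. In 1 member probe set the dKO arrays lay above and in 6 below all WT arrays, against 5.16% and 4.77% of all. The log2 fold changes ran from -0.58 to 0.49 with a median of -0.05. Gabra4 had -0.02 ± 0.13, Gabrd 0.02 ± 0.13 and Grm5 0.01 ± 0.16 on 1456119_at. Gria3 (1420563_at) had -0.38 ± 0.15, with dKO arrays at 0.10, -0.31 and 0.27 below WT arrays at 0.30, 0.50, 0.35 and 0.44, and did not pass (adjusted p = 0.625).

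The difference between ages was tested as the effect at 1 age minus the effect at another. From 6 weeks to 6 months the effect fell on 2 member probe sets, against 0.262% of all that fell and 0.448% that rose (0.71% in either direction). Both were Gabra2, with differences of -1.84 ± 0.21 and -1.76 ± 0.23 (adjusted p = 1.88e-05 and 7.76e-05, limma). From 3 months to 6 months it fell on 2, against 0.627% of all that fell and 0.488% that rose (1.11% in either direction). These were Gabra4, by 0.76 ± 0.17, and Gabrd, by 0.75 ± 0.18 (adjusted p = 0.0266 and 0.0382). Without WT replicate 2, 3 or 4 or dKO replicate 2 of 3 months, or WT replicate 3 or 4 of 6 months, neither was called (-0.76 to -0.67 for Gabra4 and -0.74 to -0.69 for Gabrd). Gabra4 was also lost without dKO replicate 3 of 3 months, and Gabrd without WT replicate 1 or the library labelled dKO replicate 3 of 6 weeks, dKO replicate 1 of 3 months or dKO replicate 4 or 5 of 6 months. No member's effect rose between ages by limma, and in either direction 26 and 17 members (28.6% and 18.7%) had an unadjusted p under 0.05 for the 2 differences, against 13.3% and 13.9% of all probe sets. The 6-month falls of the metabotropic and AMPA subunits were not shown to differ from the effects at 6 weeks or 3 months: Grm5 (1456119_at) had -0.41 and -0.62 for the 2 differences (adjusted p = 0.425 and 0.157), and Gria4 (1435722_at) -0.89 and -0.47 (adjusted p = 0.0634 and 0.327).

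Subunit balances that bear on channel properties were compared within arrays at 6 months, where the centring cancels and only the change of a difference between genotypes can be read. Gria2 minus Gria1 was 0.16 ± 0.349 in dKO and -0.36 ± 0.307 in WT, a difference of 0.52 (SD, n = 6 and 4; two-sided exact permutation p = 0.0476, or 0.0714 adjusted over 3 balances), and it rests on the Gria2 probe set that rose. Over the mean of each gene's probe sets the difference was 0.12 (adjusted p = 0.557). Grin2a minus Grin2b, the balance that shifts as NMDA receptors mature, was -0.11 ± 0.518 in dKO and -0.24 ± 0.371 in WT (exact p = 0.648). Neither passed after adjustment, and 0.00952 is the smallest p this design allows.

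Partners of these receptors were counted in the same fit, where 8.07% of all probe sets were lower and 7.62% higher at 6 months. Auxiliary subunits of AMPA and kainate receptors had 8 lower and 1 higher call among 26 probe sets of 14 genes (30.8% and 3.85%). Neto2, which slows kainate receptor gating, fell by 0.96 ± 0.13 (called on 2 of 3 probe sets), and Cacng4, a transmembrane AMPA receptor regulatory protein, fell by 0.90 ± 0.17 (2 of 2; adjusted p = 5.21e-05 and 0.00103, limma), while Cacng5, of the same family, rose by 0.68 ± 0.12 (1 of 2; adjusted p = 0.00077). Scaffold and binding proteins of glutamate receptors had 20 lower and 4 higher calls among 64 probe sets of 27 genes (31.2% and 6.25%). Homer1, which ties group I receptors to calcium stores, fell on 5 of 5 probe sets, by 1.02 ± 0.08 on 1439662_at (adjusted p = 7.67e-09). Akap5, the anchor of kinases at AMPA receptors, fell by 0.90 ± 0.20 (3 of 3). Nptx1, a secreted pentraxin that clusters AMPA receptors, rose by 1.05 ± 0.33 with overlapping arrays (2 of 2; adjusted p = 0.0357, limma). Lrrtm1, a synaptic adhesion protein, rose by 0.93 ± 0.17 on 1 probe set and fell by 0.35 on another, where arrays overlapped.

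Signalling genes downstream of group I receptors had 10 lower and 3 higher calls among 40 probe sets of 14 genes. Rgs4, which shortens Gq signals, fell by 1.37 ± 0.31 with overlapping arrays (3 of 3 probe sets called, adjusted p = 0.00441, limma). Gnaq and Gna11, the G protein alpha subunits to which these receptors couple, rose by 0.34 ± 0.12 and 0.29 ± 0.09 (adjusted p = 0.049 and 0.0256), with overlapping arrays in both. Gnaq was called on 1 of 7 probe sets and Gna11 on 2 of 2. Inhibitory synapse partners had 5 lower and 1 higher among 35 probe sets of 17 genes (14.3% and 2.86%). The transport adaptor gene Trak2 was lower by 0.49 ± 0.16 and Gabarapl1 higher by 0.21 ± 0.07, each called on 1 of 2 probe sets. Arrays overlapped for both. GABA-B and glycine receptor genes had 3 higher and 1 lower of 17 (17.6% and 5.88%). The glycine receptor genes Glra1 and Glra2 rose by 0.84 ± 0.27 (1 of 2 probe sets) and 0.40 ± 0.13 (1 of 1), with overlapping arrays. Gabbr1, a GABA-B subunit, fell by 0.40 ± 0.13 on 1 of 4 probe sets, also with overlapping arrays. Genes of transmitter synthesis, transport and chloride balance had 5 lower and 2 higher of 55 (9.09% and 3.64%). The lower share is near the 8.07% of all probe sets, and the higher share is below their 7.62%. Slc38a2, an amino acid transporter, rose by 0.34 ± 0.11 on 1 of 3 probe sets, and the chloride exporter gene Slc12a5 fell by 0.49 ± 0.16 on 1 of 2. Arrays overlapped in both.

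**Figure D4:**
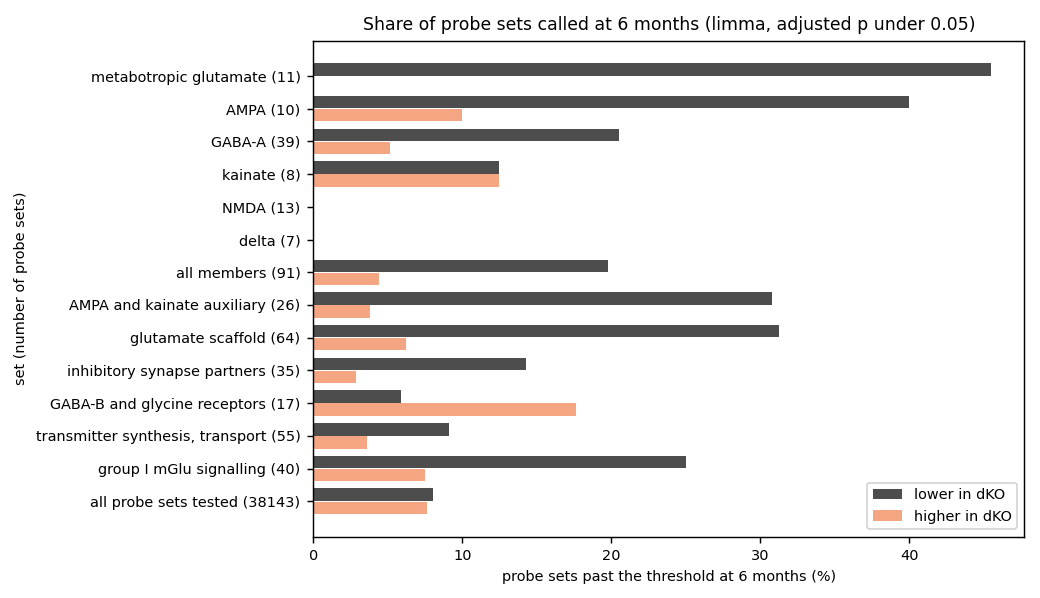
Share of probe sets (horizontal axis, percent) with a limma adjusted p under 0.05 at 6 months, lower (dark) and higher (light) in dKO, for receptor classes, partner lists and all 38143 probe sets. The lower share is 45.5% in metabotropic receptors and 40% in AMPA receptors, against 8.07% of all probe sets.

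Among these lists 4 probe sets were called at 6 weeks and none at 3 months. They were 2 of 55 probe sets of transmitter synthesis and transport (3.64%), 1 of 64 of scaffold proteins (1.56%) and 1 of 40 of group I signalling (2.5%). Of all probe sets, 0.202% were called in either direction at 6 weeks and 0.262% at 3 months. Slc17a6, the vesicular glutamate transporter of thalamic and other subcortical neurons, rose by 2.11 ± 0.42 and 2.18 ± 0.37 on 2 probe sets, and Rgs2 and Homer1 fell by 0.89 ± 0.17 and 0.73 ± 0.15 on 1 each (adjusted p = 0.026 and 0.0472, limma).

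Medium spiny neuron markers were lower at 6 months. Of 60 probe sets of 23 marker genes, 31 were lower (51.7%, 18 genes) and none higher, against 8.07% lower and 7.62% higher of all probe sets. The largest falls were in the receptor genes Drd2, by 1.84 ± 0.21, and Adora2a, by 1.65 ± 0.20. The array medians of these markers were -0.68 to -0.39 in dKO and 0.00 to 0.26 in WT, without overlap. Cortical neuron markers had medians of -0.46 to 0.34 in dKO and -1.24 to -0.12 in WT, with 5 higher calls and 1 lower of 29 probe sets. The higher calls were of Bhlhe22, Neurod2, Nrn1 and Tshz2, and the lower one was of Lamp5. Whether these genes followed cell content or genotype was not tested. Other marker lists had 4 higher and 1 lower of 35 (thalamic or pallidal neurons), 1 and 2 of 15 (striatal interneurons), 2 and 8 of 41 (astrocytes), 1 and 9 of 36 (oligodendrocytes), 0 and 2 of 19 (microglia), 0 and 5 of 22 (endothelial and mural cells), 5 and 0 of 15 (cerebellar granule neurons) and 0 and 0 of 24 (choroid plexus and ependyma). The part of the medium spiny neuron shift in the receptor results was not tested. With the cortical, thalamic and choroid plexus medians as covariates, 24 members were lower and 2 higher at 6 months. Without the arrays high in choroid plexus markers 15 were lower and 4 higher. The shares of all probe sets called in those fits are not given here, so these counts have no background beside them. At 3 months the medium spiny neuron medians overlapped, at -0.08 to 0.33 in dKO and -0.18 to 0.30 in WT. At 6 weeks they were -0.45 to 0.33 in dKO and 0.23 to 0.52 in WT. The median log2 fold change of these markers was -0.47 at 6 weeks and -0.47 at 6 months. At 6 weeks 57 of the 60 had a negative fold change, and 40 had an unadjusted p under 0.05 by limma, against 8.66% of all probe sets. All dKO arrays lay below all WT arrays on 20, against 10.1% of all. The 2 that passed were Rxrg, lower by 1.03, and Foxp2, lower by 0.69 (adjusted p = 0.047 for both, limma).

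**Figure D5:**
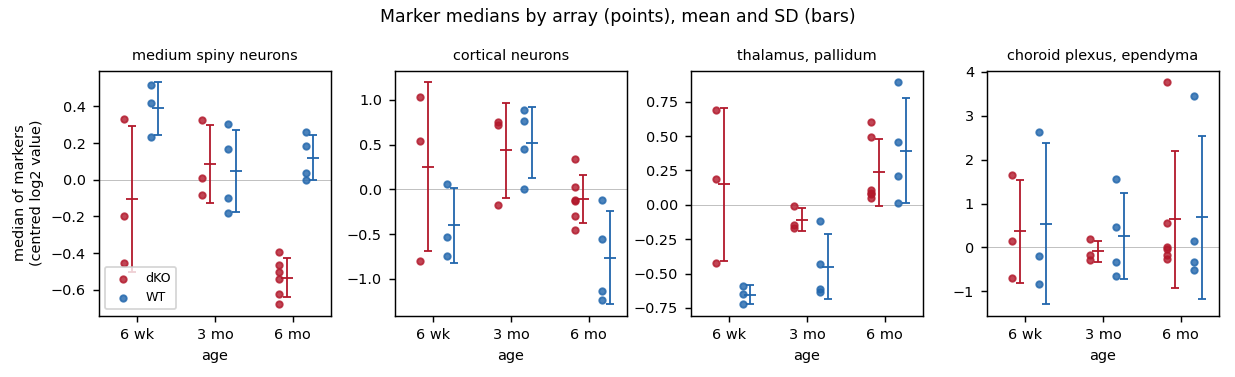
Median centred log2 value of marker genes (vertical axis) in every array at the 3 ages (6 weeks, 3 and 6 months) for 4 marker lists, with the mean and SD of each group; dKO stands left of WT. Medium spiny neuron medians at 6 months lie at -0.68 to -0.39 in dKO and at 0.00 to 0.26 in WT.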

How the data were processed

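Per the labels' protocols, cRNA from striatal RNA was read on Affymetrix arrays. The deposited log2 values come from RMA (no version stated), per the submitters' processing notes. The array design is not given in the sources used here, nor is the annotation release. Probe sets were centred, since 39666 of 45101 have an array at exactly 0. The authors' normalized table has 2 columns of the same name, left out here, and its other 21 equal the series value table (largest difference 0). Probe sets with several symbols (1253) or none (5705) were not tested, which leaves 38143. A probe set naming Gabrg3 with other genes was left out. A filter on low values was not possible without levels.

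All 23 arrays entered a limma 3.58.1 fit with 6 group means in R 4.3.3, default eBayes (residual df 17, prior df 4.77), Benjamini-Hochberg adjustment over all 38143 probe sets and a threshold of 0.05. The fit was checked on simulated data. Subunit balances used exact permutation tests (scipy 1.17.1 in Python 3.11.15), and figures matplotlib 3.10.9. Alternatives were quantile normalization, gene-level values, array weights, robust eBayes, own-age fits, a stricter threshold, a filter on SD, a replicate block, tissue covariates and left-out arrays.

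The members and lists were chosen with earlier results of these data known. The naming rule gives values for genes whose probe set of largest SD over all arrays was called without overlap (Gria3, Gria4, Gabrd, Grik4, Grm3 and Grm5) and, in other classes, for the largest change at 6 months (Grin2c, Gabrr2 and Grid2ip). In each partner list it names the largest called changes each way. Some items that the rule names, and 1 subunit balance, are not reported here. Other members were named after their values were seen. Of the listed genes, 3 were matched through older symbols in a RefSeq table and 7 had no probe set with 1 symbol under their name. Same-numbered arrays did not deviate together: the correlations of 10 pairs ran from -0.36 to 0.15, and 2 were the best match. So few pairs cannot exclude a pairing, but the labels state none, and the numbers were not used to pair animals in the main fit.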

Additional observations from a re-analysis of the deposited data

Results flagged for a closer look

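Among named probe sets, 5 of 87 groups of 4 or 6 arrays held 1 array far from the rest, and chance gives about 1 in 20. In dKO at 6 months these were Gria4 1435722_at, lowest array -1.20 (next -0.55), Gabrb2 1429685_at, lowest -0.62 (next -0.33), and Gabra2 1420299_at, highest 0.33 (next 0.07). In WT they were Gria2 1421970_a_at at 6 months, lowest -0.23 (next -0.02), and Grik2 1425790_a_at at 3 months, lowest 0.0618 (next 0.2204).

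The effect of genotype differed between ages on 4 probe sets by limma's test of the difference. Gabra2 had an effect at 6 months minus that at 6 weeks of -1.84 ± 0.21 on 1443865_at and -1.76 ± 0.23 on 1455444_at. Gabra4 1433707_at and Gabrd 1449980_a_at had effects at 6 months minus those at 3 months of -0.76 ± 0.17 and -0.75 ± 0.18.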

How the results depend on the processing

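Of the named members' values, 291 kept direction and call under alternatives other than left-out arrays, 74 lost the call, 5 gained one and 14 turned sign; with single arrays left out these were 737, 53, 5 and 10. Calls of Grm5 1456119_at and Gabrd 1449980_a_at at 6 months held under every alternative run. The cause of the changes below was not tested, except that gene-level fits count genes. Counts over all probe sets under each alternative are not given here, so a changed count may not be particular to the members. The number of arrays, the lost levels and disagreeing probe sets limit what can be said.

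Higher members at 6 weeks (2) numbered 0 with 1 probe set per gene, with tissue covariates and without arrays high in choroid plexus markers, 1 with gene means and with own-age arrays, and 16 with array weights, which also gave 6 lower ones (0 under the other alternatives that keep every array). Those weights gave the library labelled dKO replicate 3 of 6 weeks 5.32, against 0.589 and 0.789 for the other 2 dKO arrays of that age. Higher members at 6 months (4) numbered 2 with gene means and with tissue covariates and 0 with own-age arrays and at an adjusted p under 0.01. Lower members at 6 months (18) numbered 7 and 9 in the gene-level fits, and 12 to 24 otherwise. Members whose effect fell from 6 weeks to 6 months (2) numbered 0 and 1 in the gene-level fits and 16 with array weights, where 2 rose. Those whose effect fell from 3 to 6 months (2) numbered 0 with quantile normalization, gene means and an adjusted p under 0.01, 1 with the largest-SD probe set, own-age arrays and tissue covariates, and 4 with array weights and without choroid-high arrays.

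With the replicate number as a block there were 2 higher members at 6 weeks and 4 higher and 19 lower at 6 months. The effect fell on 5 from 6 weeks and on 0 from 3 months. The labels state no pairing by these numbers.

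Leaving out single arrays gave 2 to 4 higher and 0 to 1 lower members at 6 weeks, 0 at 3 months, 0 to 5 higher and 14 to 21 lower at 6 months, 2 to 4 with a falling effect from 6 weeks (4 without dKO replicate 2 of 6 months) and 0 to 3 from 3 months. Balances ranged from 0.40 to 0.64 (Gria2 minus Gria1) and -0.0013 to 0.29 (Grin2a minus Grin2b, below 0 without WT replicate 2 of 6 months).

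Signs turned at 6 months for values near 0. Gabra2 1421738_at had 0.12 (quantile), 0.10 (weights), 0.069 (block), 0.13 (without choroid-high arrays) and 0.034, 0.080 and 0.28 with an array left out. Gabra2 1420299_at had 0.012 (block), 0.0165 (without choroid-high arrays) and 0.0004, 0.0053, 0.0094 and 0.035 with an array left out. Grid2ip had -0.053 (quantile), -0.047 (weights), -0.056 (block), -0.028 (without choroid-high arrays) and -0.047, -0.042 and -0.044 with an array left out. Gene-level fits, which replace a probe set by another or by the mean, turned Gria2 1421970_a_at to 0.50 and 0.060 and Gabrg3 1439717_at to -0.32 and -0.060.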
